A study of Mus musculus with 12 samples.

Results

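The membrane-spanning 4A (MS4A) genes expressed by macrophages were followed in tumor-associated macrophages (TAMs) sorted from mouse melanoma. The 8 genes were chosen by symbol, namely Ms4a4a, Ms4a4b, Ms4a4c, Ms4a6b, Ms4a6c, Ms4a6d, Ms4a7 and Ms4a8a, and each held a single row among the 55401 gene rows of both count tables. RNA sequencing was run on 12 libraries in 4 groups of 3, deposited as 2 tables. In the first table, TAMs of AMPKfl/fl mice, called WT, were set against TAMs of AMPKfl/flLyz2cre/cre mice, called AMPK-KO, in which the floxed AMPK gene is cut by a Cre driven from the lysozyme 2 (Lyz2) gene and active in myeloid cells generally, not in TAMs alone. Both groups carried the floxed allele, and the genotype labels of AMPK-KO replicates 2 and 3 write Lyz3 and Lyz4 in place of Lyz2. In the second table, TAMs of wild-type mice taken at day 8 of tumor growth, called early-stage, were set against those taken at day 15, called late-stage. For WT and AMPK-KO the labels give no day, and the study's methods give day 15. All groups had the C57BL/6 background, bore subcutaneous B16-F10 melanoma, a mouse melanoma cell line, received no treatment according to the labels, and were 5-week-old females according to the methods. TAMs were sorted by flow cytometry. The methods define them as CD45+CD11b+Ly6C-Ly6G-F4/80+ cells, whereas figure captions of the study write Ly6C+ for TAMs, with Ly6G+ in one and Ly6G- in another, so the Ly6C gate of the sorted cells is uncertain. No source states that replicates were separate animals, so p-values measure the spread between these samples, which may be technical.

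MS4A proteins cross the membrane several times and sit beside immune receptors, whose trafficking and signaling they adjust. The best known is CD20, made by B cells from Ms4a1. In myeloid cells, Ms4a4a is induced by alternative activation and associates with the fungal receptor Dectin-1, Ms4a8a and Ms4a7 mark alternatively activated and tumor-associated macrophages, and Ms4a6d pairs with the complement receptor VSIG4. Ms4a4b was first studied in T cells, where Ms4a4b and Ms4a6b associate with the costimulatory receptor GITR.

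Library totals were 71019494 to 81671067 counts in WT and AMPK-KO and 77155066 to 84470374 in early-stage and late-stage. Summed over 10 macrophage markers, Lyz2 among them, CPM, the count scaled to a library total of 1e6, was between 11622 and 14538 in the 4 groups. Lyz2 entered this sum with a mean of 2790 CPM in early-stage, 1107 in late-stage, 10.7 in WT and 11.2 in AMPK-KO. The sum therefore does not show that each marker was even. In counts, Lyz2, a defining macrophage gene, had 671 to 975 in WT and 676 to 1088 in AMPK-KO, against 88212 to 249165 in the other table. WT libraries, which the labels give no Cre, were thus as low in Lyz2 as AMPK-KO libraries. Prkaa1, which encodes an AMPK catalytic subunit, had 3285 to 3467 counts in AMPK-KO and 4535 to 5165 in WT, a count over the whole gene that does not isolate the deleted exons. Summed counts of 4 Y-linked genes were 11299 to 12183 in AMPK-KO, 9229 to 11360 in WT, 3435 to 4035 in early-stage and 0 to 4 in late-stage. Sex as read from these genes therefore moved with tumor stage, and the methods name females only. The part of sex and stage in any late-stage difference cannot be told apart.

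The 8 genes lie in one cluster on mouse chromosome 19, within 678559 bases that hold 35 annotated genes (GRCm38, GENCODE M21). Along the chromosome the order was Ms4a8a (ENSMUSG00000024730.7, chr19:11067471-11081102, minus strand), Ms4a7 (ENSMUSG00000024672.11, chr19:11321039-11336146, minus), Ms4a4a (ENSMUSG00000101389.1, chr19:11375523-11392790, plus), Ms4a4c (ENSMUSG00000024675.19, chr19:11404770-11427246, plus), Ms4a4b (ENSMUSG00000056290.16, chr19:11443553-11467055, plus), Ms4a6c (ENSMUSG00000079419.4, chr19:11469366-11482192, plus), Ms4a6b (ENSMUSG00000024677.13, chr19:11516512-11531256, plus) and Ms4a6d (ENSMUSG00000024679.10, chr19:11586604-11604849, minus). Reads were counted over exons, untranslated regions included. Some neighbouring members are near copies of each other, and their coding starts show how near. The first 90 coding bases of Ms4a4b and Ms4a4c follow, with capitals at the 7 bases where Ms4a4c differs.
Ms4a4b: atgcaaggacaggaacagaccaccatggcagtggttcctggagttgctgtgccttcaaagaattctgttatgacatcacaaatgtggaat
Ms4a4c: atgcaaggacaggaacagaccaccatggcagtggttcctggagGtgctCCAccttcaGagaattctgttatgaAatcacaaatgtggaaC
The same stretch of the Ms4a6 genes has capitals where Ms4a6c, at 18 bases, and Ms4a6d, at 8 bases, differ from Ms4a6b.
Ms4a6b: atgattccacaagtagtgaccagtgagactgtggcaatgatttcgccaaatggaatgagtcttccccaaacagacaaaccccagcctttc
Ms4a6c: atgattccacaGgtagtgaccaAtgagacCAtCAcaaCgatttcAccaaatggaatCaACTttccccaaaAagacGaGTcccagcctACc
Ms4a6d: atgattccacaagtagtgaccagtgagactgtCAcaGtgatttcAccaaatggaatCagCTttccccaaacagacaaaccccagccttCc

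Over the whole coding sequence, Ms4a4b and Ms4a4c were 91.7% identical, with a longest identical run of 127 bases. Ms4a6b was 85.4% identical to Ms4a6c and 81.2% to Ms4a6d, and Ms4a6c and Ms4a6d were 79.0% identical. Ms4a4a, Ms4a7 and Ms4a8a had no such partner: the highest identity of any of them was 68.3%, between Ms4a4a and Ms4a4c. The lowest identity of any pair was 57.4%, between Ms4a6b and Ms4a8a. The share of a gene's 50-base transcript words found in another annotated gene was 10.54% for Ms4a6c, 8.19% for Ms4a4c, 3.57% for Ms4a6b, 2.54% for Ms4a6d, 2.4% for Ms4a4b, 0.31% for Ms4a7 and 0 for Ms4a4a and Ms4a8a. How reads matching several genes were counted is not given in the sources used here, so values of Ms4a4b and Ms4a4c and of the 3 Ms4a6 genes are uncertain by reads that fit a copy. Ms4a6c also shares 1088 exon bases with BE692007 on the opposite strand, Ms4a4c shares 28 with Gm5692 and Ms4a6b 19 with Gm19261, and whether counting used strand is not given. By the test applied to every gene here, edgeR's quasi-likelihood test with p-values adjusted by Benjamini and Hochberg's method over all genes tested and a threshold of 0.05, BE692007 did not pass in AMPK-KO against WT (log2 fold change 0.27, adjusted p = 0.523) or in late-stage against early-stage (-0.65, adjusted p = 0.113).

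All 8 members passed the filter on low counts in both tables, and they spanned a wide range of levels. Levels between genes are compared here as CPM per kilobase of merged exon, with CPM scaled by the trimmed mean of M-values (TMM). In WT the order was Ms4a6d (287), Ms4a6c (188), Ms4a4a (161), Ms4a4c (107), Ms4a7 (91.9), Ms4a6b (56.0), Ms4a8a (10.6) and Ms4a4b (2.21). Ms4a4b has 8780 merged exon bases in the annotation, the most of the 8, and Ms4a4a 836, the fewest, so these values rest on which isoforms are annotated. In late-stage, which is in the other table and not matched to WT, the order was different: Ms4a6d (180), Ms4a6c (154), Ms4a7 (91.8), Ms4a4c (70.2), Ms4a4a (46.3), Ms4a6b (39.8), Ms4a8a (3.01) and Ms4a4b (2.94). Ms4a4a thus stood above Ms4a7 in WT and below it in late-stage. In early-stage, the group that late-stage is tested against, Ms4a4a was at 116 to 158 and Ms4a7 at 76.3 to 86.7.

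**Figure D1:**
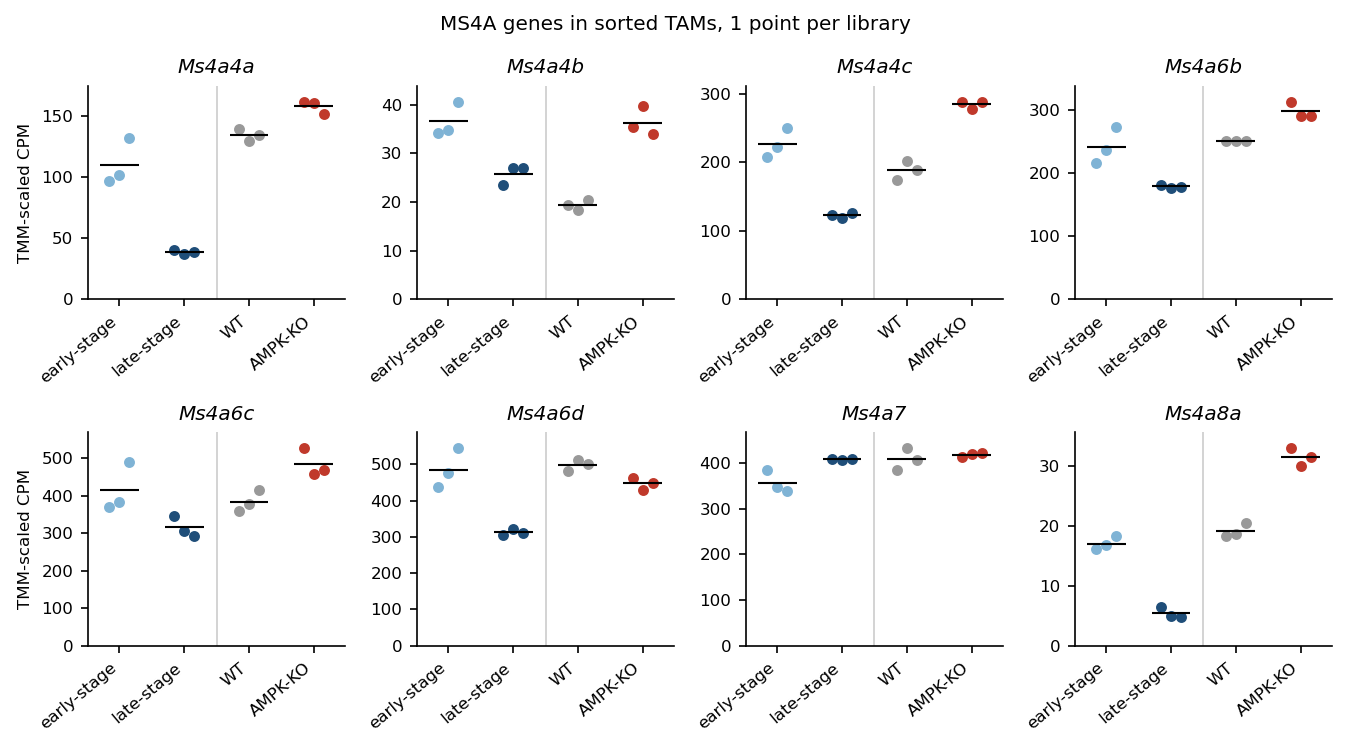
TMM-scaled CPM of the 8 MS4A genes (vertical axes, each from 0) in the 3 libraries of each group (points) with the group mean (line); the grey line parts the 2 tables, which were scaled separately. Ms4a4a and Ms4a8a stood lowest in late-stage at 37.1 to 40.6 and 4.82 to 6.45 CPM, while Ms4a7 stayed between 340 and 433 CPM in all 12 libraries.

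The first comparison asked which MS4A genes differ when TAMs carry the AMPK deletion. Of the 8 members, 6 were higher and 1 was lower in AMPK-KO than in WT by edgeR's test. Among the 17532 genes tested, 11.3% were higher and 9.78% lower. The differences were moderate: no member changed by more than 1 on the log2 scale while passing, which 3.34% of all genes did, and the median over the members was 0.29 against -0.004 over all genes. The 3 libraries of AMPK-KO did not overlap those of WT for 7 of the 8 members, against 37.2% of all genes.

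Ms4a4b rose most. Its CPM was 35.4, 39.7 and 33.9 in AMPK-KO and 19.4, 18.4 and 20.5 in WT, with every AMPK-KO library above every WT library. The means were 36.4 ± 3.02 and 19.4 ± 1.10 (SD, n = 3), a log2 fold change of 0.90 ± 0.08 (SE; edgeR adjusted p = 3.9e-05). Its closest copy Ms4a4c had 287, 278 and 288 CPM in AMPK-KO and 174, 201 and 189 in WT. The groups were again apart, and Ms4a4c differed by 0.60 ± 0.06 (adjusted p = 4.5e-05).

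Of the genes tied to alternatively activated macrophages, Ms4a8a had 32.9, 30.0 and 31.5 CPM in AMPK-KO against 18.2, 18.6 and 20.4 in WT. All AMPK-KO libraries were higher, by 0.72 ± 0.08 on the log2 scale (adjusted p = 1.2e-04). Ms4a4a had 162, 161 and 152 CPM in AMPK-KO and 140, 130 and 135 in WT. Its groups lay closer but apart, with a difference of 0.23 ± 0.05 (adjusted p = 9.0e-03). The call for Ms4a4a was lost without WT replicate 3 (adjusted p = 0.0525) or without AMPK-KO replicate 2 (0.053). Ms4a7 had 414, 420 and 422 CPM in AMPK-KO and 386, 433 and 408 in WT. The WT libraries spread to either side of the AMPK-KO libraries, and Ms4a7 did not pass (0.03 ± 0.05, adjusted p = 0.71). Without WT replicate 1 its estimate was -0.01.

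The Ms4a6 genes did not all move the same way. Ms4a6b had 313, 291 and 291 CPM in AMPK-KO and 251 in each WT library, a difference of 0.25 ± 0.05 (adjusted p = 3.8e-03). Ms4a6c had 527, 458 and 468 CPM in AMPK-KO and 360, 378 and 416 in WT, 0.33 ± 0.07 (adjusted p = 6.0e-03). Both were higher in every AMPK-KO library. Ms4a6d, in contrast, had 462, 430 and 449 CPM in AMPK-KO and 481, 513 and 500 in WT. It was lower in every AMPK-KO library, by a small amount (-0.16 ± 0.05, adjusted p = 0.0367). The call for Ms4a6d was lost without AMPK-KO replicate 1 (adjusted p = 0.0519), 2 (0.161) or 3 (0.0724) and without WT replicate 2 (0.109) or 3 (0.11).

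The second comparison asked which MS4A genes differ between day 8 and day 15 tumors. Of the 8 members, none was higher and 6 were lower in late-stage than in early-stage, against 4.31% higher and 4.88% lower among the 17630 genes tested. Ms4a4a and Ms4a8a passed with a change above 1 on the log2 scale, which 1.87% of all genes did. The median over the members was -0.57, against 0.003 over all genes. Late-stage and early-stage libraries did not overlap for any of the 8 members, against 31.2% of all genes. Without single libraries, 4 to 8 members passed.

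Ms4a8a fell most. Its CPM was 6.45, 4.92 and 4.82 in late-stage and 16.1, 16.7 and 18.2 in early-stage, with the groups far apart. The means were 5.40 ± 0.915 and 17.0 ± 1.07 (SD, n = 3), a log2 fold change of -1.65 ± 0.14 (adjusted p = 1.4e-04). Ms4a4a had 40.6, 37.1 and 38.4 CPM in late-stage and 96.9, 102 and 132 in early-stage. Its late-stage libraries were tight and all lower, with a difference of -1.51 ± 0.12 (adjusted p = 6.9e-05). Ms4a7 had 409, 407 and 410 CPM in late-stage and 386, 347 and 340 in early-stage, so that it alone of the 8 had the higher libraries in late-stage. The difference did not pass (0.19 ± 0.07, adjusted p = 0.128), and without early-stage replicate 1 it did (0.25, adjusted p = 0.0186).

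Among the Ms4a6 genes, Ms4a6d had 304, 321 and 311 CPM in late-stage and 436, 475 and 544 in early-stage. All late-stage libraries were lower, by -0.64 ± 0.09 on the log2 scale (adjusted p = 1.9e-03). Ms4a6b had 181, 177 and 178 CPM in late-stage and 216, 236 and 273 in early-stage, a difference of -0.44 ± 0.09 (adjusted p = 0.0155). Ms4a6c had 347, 306 and 294 CPM against 371, 383 and 491. Its groups were just apart, and it did not pass (-0.39 ± 0.11, adjusted p = 0.0609). Ms4a6c passed without early-stage replicate 1 (-0.47, adjusted p = 0.0251), and without early-stage replicate 3 its estimate shrank to -0.25 (0.073). The call for Ms4a6b was lost without early-stage replicate 2 (0.0659) or without late-stage replicate 1 (0.0641), 2 (0.0829) or 3 (0.079).

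In the Ms4a4b and Ms4a4c pair, Ms4a4c had 123, 119 and 126 CPM in late-stage and 207, 222 and 250 in early-stage. Its late-stage libraries all lay lower, by -0.88 ± 0.08 (adjusted p = 2.1e-04). Ms4a4b had 23.5, 27.0 and 27.0 CPM in late-stage and 34.2, 34.9 and 40.6 in early-stage, again with all late-stage libraries lower (-0.50 ± 0.11, adjusted p = 0.0173). The call for Ms4a4b was lost without early-stage replicate 2 (adjusted p = 0.0577) or without late-stage replicate 1 (0.0804), 2 (0.0622) or 3 (0.0622). Early-stage replicate 3 had the highest early-stage CPM for every member except Ms4a7.

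**Figure D2:**
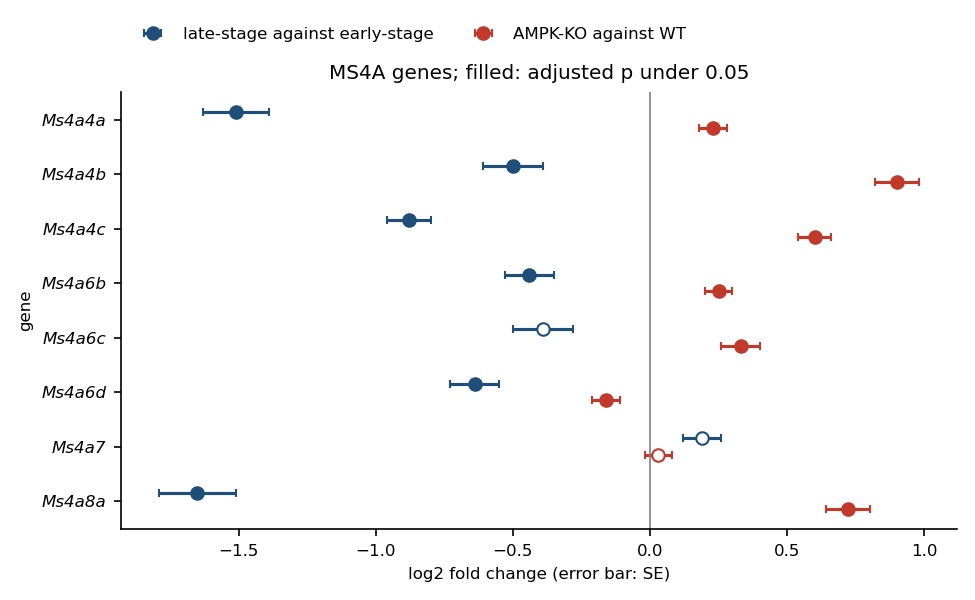
Log2 fold change (horizontal axis) with its SE for each of the 8 MS4A genes in late-stage against early-stage (blue) and AMPK-KO against WT (red), with filled points where the adjusted p was under 0.05. Ms4a4a, Ms4a4b, Ms4a4c, Ms4a6b and Ms4a8a passed as lower in late-stage and as higher in AMPK-KO. Ms4a6c passed only in AMPK-KO, as higher, Ms4a6d passed as lower in both, and Ms4a7 passed in neither.

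The 2 comparisons share no library. Placed side by side, the ordering of the changes differed. Ms4a4a changed by -1.51 with stage and 0.23 with genotype, whereas Ms4a4b changed by -0.50 and 0.90. Summed over the 8 members, CPM was 2233, 2108 and 2135 in AMPK-KO and 1829, 1944 and 1940 in WT, a log2 ratio of the means of 0.18. The sum was 1435, 1400 and 1390 in late-stage and 1763, 1817 and 2089 in early-stage, a log2 ratio of -0.42. Neither pair of groups overlapped in the sum, and the two-sided exact permutation p was 0.1 in each, the smallest that 3 against 3 libraries can give.

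WT and late-stage TAMs, both from day 15, also differed in MS4A levels. Ms4a8a was 3.54 times and Ms4a4a 3.49 times as high in WT as in late-stage, Ms4a6d 1.6 times, Ms4a4c 1.53 times, Ms4a6b 1.4 times and Ms4a6c 1.22 times, while Ms4a7 was equal (1.0) and Ms4a4b was lower in WT (0.752). Because the tables were scaled separately, these ratios were recomputed with all 12 libraries scaled together, and were then 3.60 for Ms4a8a, 3.56 for Ms4a4a and 0.769 for Ms4a4b. No test was run across the tables. WT and late-stage also differed in the floxed allele, in Y-linked counts (9229 to 11360 against 0 to 4) and in Lyz2 counts (671 to 975 against 88212 to 93224). They are therefore not matched groups, and the part of each of these in the ratios cannot be told apart. Ordered by mean, neighbouring groups overlapped for Ms4a4a only between WT and early-stage, and for Ms4a6c between AMPK-KO and early-stage and between early-stage and WT. For Ms4a8a, the lowest WT and the highest early-stage library both rounded to 18.2 CPM. With joint scaling they were 18.4 and 18.2, so those groups touched without overlapping, and its other neighbours were apart. For Ms4a7 AMPK-KO overlapped WT and WT overlapped late-stage. For Ms4a6b WT overlapped early-stage, for Ms4a6d early-stage overlapped both WT and AMPK-KO, for Ms4a4b early-stage overlapped AMPK-KO, and for Ms4a4c no neighbours overlapped.

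Across the 12 libraries, with log2 CPM centered within each table, the 7 members other than Ms4a7 were positively correlated in every pair, from r = 0.27 for Ms4a4b and Ms4a6d to 0.96 for Ms4a4c with Ms4a8a and with Ms4a6b. Ms4a7 was negatively correlated with each of them, from -0.84 with Ms4a6d to -0.32 with Ms4a4b. These values describe 12 libraries that fall into 4 groups and share scaling, and near copies may share reads. Sequence identity and likeness of level were not the same ordering: Ms4a4b and Ms4a4c, at 91.7% identity, had r = 0.86, and Ms4a4c and Ms4a8a, at 62.2% identity, had r = 0.96.

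**Figure D3:**
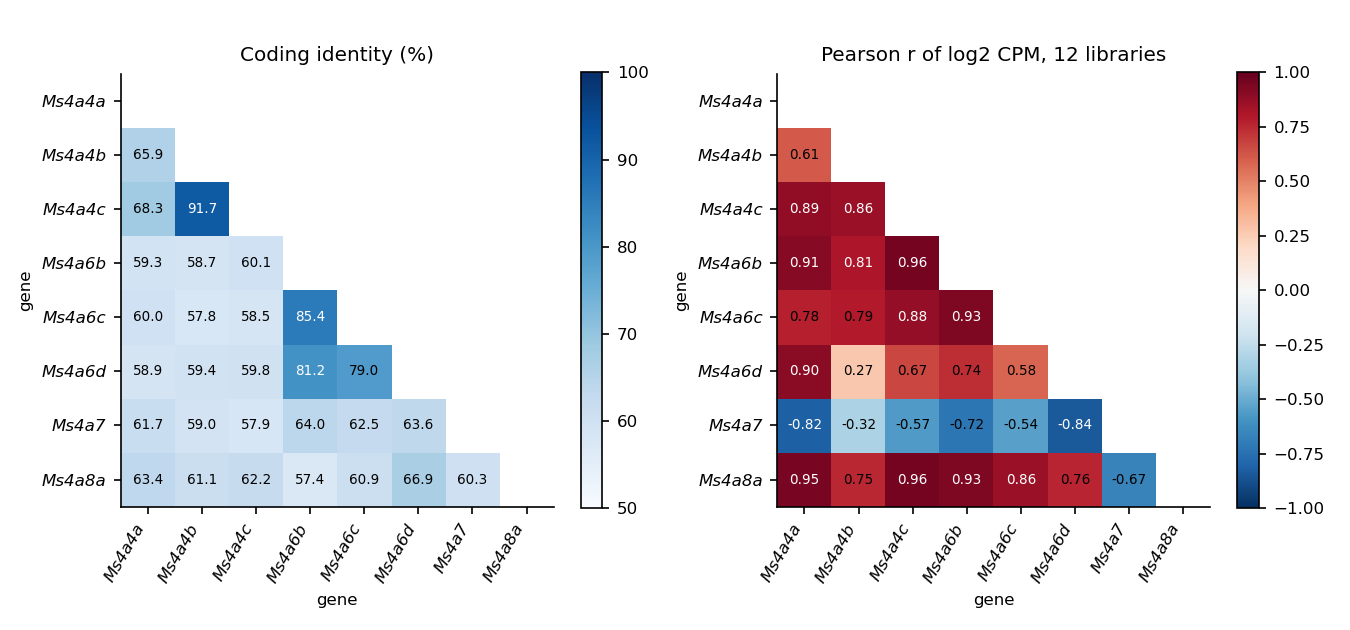
For each pair of MS4A genes (both axes), identity of the coding sequences in percent (left) and Pearson's r of log2 CPM over 12 libraries, centered within each table (right). The highest identities are 91.7% for Ms4a4b with Ms4a4c and 85.4% for Ms4a6b with Ms4a6c, and the row and column of Ms4a7 hold the negative r values, down to -0.84.

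The genes whose levels were most like each member, by the same r over 16811 genes, were as follows. For Ms4a4a they were Ccr1 (r = 0.995), Fpr1 (0.988) and Cass4 (0.986), the first of which encodes a chemokine receptor and the next a formyl peptide receptor. For Ms4a8a they were Ccr2 (0.988), the chemokine receptor of inflammatory monocytes, Lyz1 (0.988) and Pla2g7 (0.985). Ms4a4c came with Ifi205 (0.991), Ifit1bl1 (0.989) and Acod1 (0.987), and Ms4a6b with Ifi209 (0.992), Trim12c (0.988) and Ifit2 (0.978). The genes named Ifi and Ifit belong to families induced by interferon. Closest to Ms4a4b were Dusp16 (0.982), Inhba (0.982) and Stx11 (0.976), to Ms4a6c Ppm1k (0.955), Zfp65 (0.951) and Skint3 (0.949), to Ms4a6d Myadm (0.975), Mitf (0.974) and Zfp493 (0.973), and to Ms4a7 Hmgb2 (0.967), Gm43412 (0.962) and Uck1 (0.953).

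Promoter windows of RefSeq (GRCm38.p6), from 250 bases before to 50 bases after a start of transcription, were at hand for 7 members in 8 windows. A window need not lie at the outer end of the gene as GENCODE draws it: the start it belongs to was 2047 bases inside the gene for Ms4a6b, 2891 for Ms4a4c and 1451 for 1 of the windows of Ms4a7, and within 35 bases of the outer end for the other windows. The core of the interferon-stimulated response element, GAAANNGAA searched on both strands, was in 4 of the 8 member windows and in 8.6% of 32851 windows. The pieces of Ms4a6b and Ms4a6c around their match are printed because these neighbouring near copies hold the same match in a shared stretch. The match, in capitals, lies 206 to 198 bases before the RefSeq start of Ms4a6b at 11518559, in a piece (chr19:11518323-11518391, plus strand) inside the gene as annotated and over no annotated exon. In Ms4a6c it lies 133 to 125 bases before the RefSeq start at 11469368, in a piece (chr19:11469205-11469273, plus strand) upstream of the gene.
Ms4a6b: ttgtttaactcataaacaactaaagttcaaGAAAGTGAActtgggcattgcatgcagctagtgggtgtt
Ms4a6c: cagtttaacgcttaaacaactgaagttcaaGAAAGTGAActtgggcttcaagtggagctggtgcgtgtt
The other matches were in both windows of Ms4a7, which did not pass in either comparison. The 4 windows are thus not independent cases to set against 8.6%. No such match lay in the windows of Ms4a4a, Ms4a4b, Ms4a4c or Ms4a8a, and Ms4a6d had no window. Of the other motifs, the AP-1 site TGANTCA was in 3 member windows (7.8% of all), the STAT6 site (TTC and GAA with 4 bases between) in 2 (7.0%), and the gamma-activated site TTCNNNGAA (8.3%) and the PU.1 site GAGGAAGT (3.2%) in none. A match is a run of letters and was not tested for binding.

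In AMPK-KO, 16 of 22 interferon response genes rose and 2 fell, with a median log2 fold change of 0.45. The smallest adjusted p values belonged to the guanylate-binding protein genes Gbp4 (1.93, adjusted p = 4.3e-08) and Gbp2 (1.20, 1.2e-07), to Ciita (1.47, 2.7e-07), the switch for class II antigen presentation, and to Irf1 (1.06, 3.3e-07). In late-stage 1 was higher and 9 were lower, with a median of -0.24, led by Rsad2 (-0.61, adjusted p = 1.1e-03), Ifit1 (-0.88, 1.5e-03), Ifit3 (-0.47, 2.8e-03) and Zbp1 (-0.41, 4.3e-03). Their summed CPM was 5908 to 6101 in AMPK-KO and 4183 to 4314 in WT, and 4174 to 4357 in late-stage and 4712 to 4923 in early-stage. Ms4a4c and Ms4a6b passed in the directions of this list's medians, and so did Ms4a4a, Ms4a4b and Ms4a8a. Ms4a6c passed only in AMPK-KO, Ms4a6d passed as lower in both comparisons, and Ms4a7 passed in neither. The part of interferon in these differences was not tested.

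Markers of monocytes rose in AMPK-KO and fell in late-stage, as did Ms4a4a, Ms4a4b, Ms4a4c, Ms4a6b and Ms4a8a. Ms4a6c passed only in AMPK-KO, as higher, Ms4a6d passed as lower in both, and Ms4a7 passed in neither. Of the 8 monocyte markers, 5 were higher and none lower in AMPK-KO (median 0.78). Among them were Ly6c2 (1.19, adjusted p = 3.4e-06), which encodes the Ly6C for which the stated gates differ, and Ccr2 (0.77, 4.3e-06). In late-stage 7 of 8 were lower (median -1.52), Ly6c2 by -1.84 (adjusted p = 4.8e-05). Their summed CPM was 936 to 971 in AMPK-KO, 564 to 599 in WT, 255 to 288 in late-stage and 644 to 743 in early-stage. In bulk samples, fewer cells of a type and less RNA per cell cannot be told apart, and the part of monocytes in the Ms4a8a and Ms4a4a differences was not tested.

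Markers of lymphocytes bear on Ms4a4b, a T cell gene as well. T cell markers were higher in AMPK-KO (13 of 14, summed CPM 341 to 357 against 184 to 212) and in late-stage (7 of 14, 403 to 459 against 318 to 353), where Ms4a4b was lower. Natural killer cell markers were higher in AMPK-KO (7 of 7, 81.7 to 84.9 against 33.3 to 37.2) and lower in late-stage (5 of 7, 39.7 to 54.2 against 89.2 to 103), as Ms4a4b was. B cell markers were lower in AMPK-KO (5 of 7, with 1 higher, 21.2 to 22.4 against 33.0 to 35.9) and higher in late-stage (4 of 7, 61.5 to 89.0 against 37.9 to 43.7). The part of these cells in the levels of the members was not tested.

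**Figure D4:**
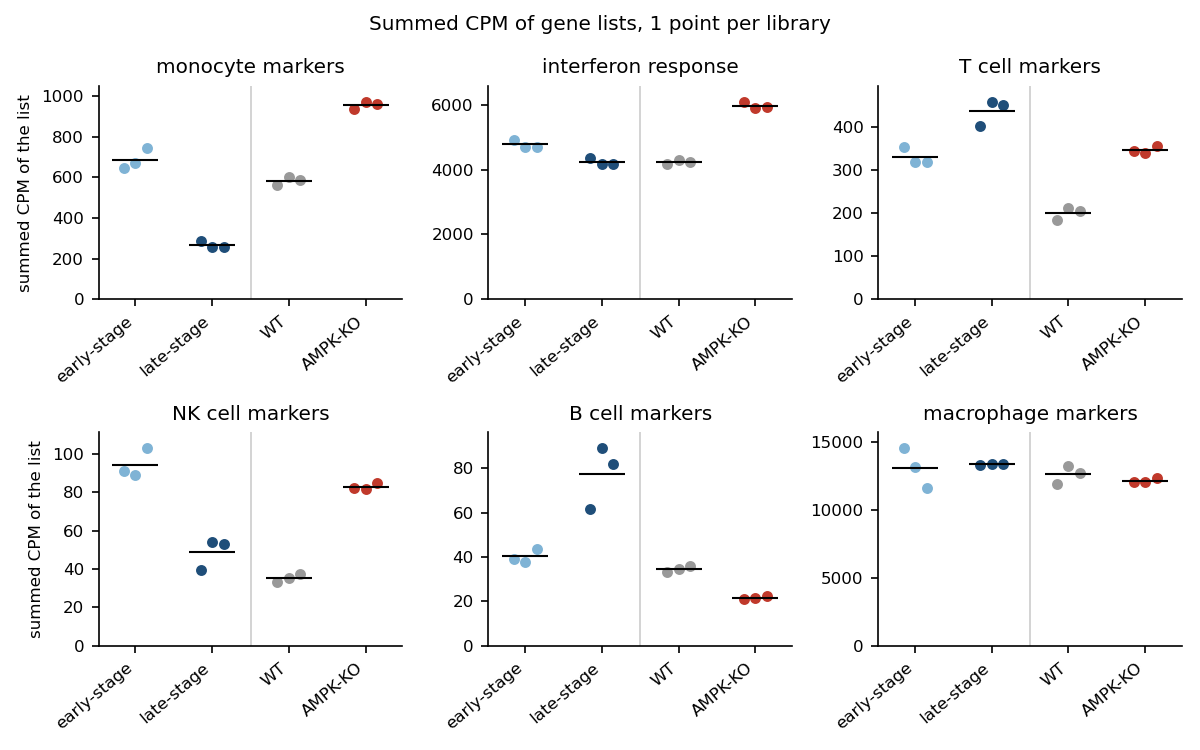
Summed CPM (vertical axes, each from 0) of 6 gene lists in the 3 libraries of each group (points) with the group mean (line); the grey line parts the 2 tables. Monocyte markers run from 255 in late-stage to 971 in AMPK-KO, while macrophage markers, Lyz2 included, lie between 11622 and 14538.

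Of the other cell types, dendritic cell markers were higher in AMPK-KO for 6 of 7 and neutrophil markers for 4 of 6 tested, with Ly6g and Ngp at 0 counts in that table, and melanoma markers were lower for 6 of 6. In late-stage 1 dendritic cell marker was higher and 1 lower, 2 of 5 neutrophil markers and 4 of 6 melanoma markers were lower. Of the macrophage markers, 2 were higher and 1 lower in AMPK-KO, and 1 higher and 1 lower in late-stage. Of the mast cell and basophil markers tested, 1 of 4 was higher in AMPK-KO and none of 3 passed in late-stage.

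A partner list of 14 genes, holding receptors and other genes such as Syk, Card9 and Grn, did not move as a block. Of these, the background above ties only Clec7a and Tnfrsf18 to MS4A proteins. In AMPK-KO, 5 of the 14 passed as higher and 2 as lower (median 0.08). Clec7a, which encodes Dectin-1, rose with Ms4a4a, from 75.0 ± 3.90 to 189 ± 3.77 CPM (SD, n = 3; 1.34, adjusted p = 2.2e-07). Fcgr4 (0.89, 5.2e-07), an activating Fc receptor, and Cd300lf (0.75, 3.3e-06) rose, and Trem2 (-0.70, 4.1e-05), a lipid-sensing receptor, fell. Named because the background introduces them, and outside the rule for list genes, Tnfrsf18, which encodes GITR, rose with Ms4a4b and Ms4a6b (0.82, adjusted p = 5.6e-04), and Vsig4 fell with Ms4a6d (-1.85, 2.2e-04) at low levels of 1.38 CPM in AMPK-KO and 4.99 in WT. In late-stage 1 was higher and 1 lower (median -0.05): Tnfrsf18 by 0.53 (adjusted p = 0.0478), while Ms4a4b and Ms4a6b fell, and the inhibitory Fc receptor gene Fcgr2b by -0.64 (6.3e-04). Clec7a did not pass there (-0.16, adjusted p = 0.33), nor did Trem2 (0.36, 0.0939) or Vsig4 (-0.42, 0.622).

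Genes of alternative activation, with which Ms4a4a and Ms4a8a are usually grouped, and of resident-type macrophages were taken as a single list. In AMPK-KO, 10 of the 17 were lower and 2 higher (median -0.47). They included Cd5l (-3.13, adjusted p = 3.9e-08), Gas6 (-1.12, 2.2e-07) and Stab1 (-0.84, 7.3e-07), while Pdcd1lg2, which encodes the checkpoint ligand PD-L2, rose (2.09, 6.6e-07). Ms4a4a and Ms4a8a rose there, against the 10 genes that fell. The list itself did not move as one. Named outside the rule for list genes, Retnla rose too (1.48, adjusted p = 1.1e-06) and Mrc1 fell (-0.51, 1.0e-04). Arg1 (adjusted p = 0.99), Chil3 (0.947) and Il4ra (0.0661) did not pass. In late-stage 12 of 17 were lower and none higher (median -0.67), with Arg1 (-1.33, adjusted p = 1.3e-05), Cd5l (-2.34, 1.4e-05), Chil3 (-1.81, 2.7e-05) and F13a1 (-1.75, 2.7e-05), in the direction of Ms4a4a and Ms4a8a.

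Of 14 listed relatives, 5 passed the filter on low counts in each table, and so did Ms4a12, which the list does not hold. Ms4a3, Ms4a10, Ms4a13, Ms4a18 and Ms4a19 had 0 counts in all 12 libraries. Ms4a1, which encodes CD20, fell from 3.39 ± 0.833 CPM in WT to 0.392 ± 0.165 in AMPK-KO (SD, n = 3; -3.10, adjusted p = 1.3e-04), alongside the B cell markers, and was 6.57 in late-stage and 4.80 in early-stage (0.45, adjusted p = 0.365). Ms4a14 was lower in AMPK-KO (-0.43, adjusted p = 0.0159) and did not pass in late-stage (0.10, 0.648). Ms4a4d and Ms4a12 passed in neither, at 0.42 (0.707) and -0.15 (0.952) in AMPK-KO and -0.73 (0.275) and 0.39 (0.82) in late-stage. Tmem176a and Tmem176b, related genes outside the cluster, were higher in AMPK-KO (0.57, adjusted p = 3.9e-05, and 0.66, 2.6e-05) and also higher in late-stage (0.28, 0.0493, and 0.38, 0.0199), where 6 members were lower.

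Within the cluster, 12 genes other than the members were tested in AMPK-KO against WT and 4 passed, 2 higher and 2 lower. Among all genes tested there, 11.3% were higher and 9.78% lower. In late-stage 1 of 13 passed, as lower, against 4.31% higher and 4.88% lower among all genes. Counts this small set the cluster apart in neither comparison. That gene was AW112010, a long noncoding RNA beside Ms4a8a, named after its values were seen: it rose from 77.5 to 208 CPM in AMPK-KO (1.42, adjusted p = 7.7e-07) and fell by 0.26 on the log2 scale in late-stage (adjusted p = 0.0342). Gm8369, named in the same way, lies between Ms4a6c and Ms4a6b and was higher in AMPK-KO (0.59, adjusted p = 0.0345). The members that changed most with stage, Ms4a8a and Ms4a4a, are parted by Ms4a7 among others, which passed in neither comparison. The members that changed most with genotype were Ms4a4b (0.90), Ms4a8a (0.72) and Ms4a4c (0.60), of which Ms4a4b and Ms4a4c are neighbouring members.

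**Figure D5:**
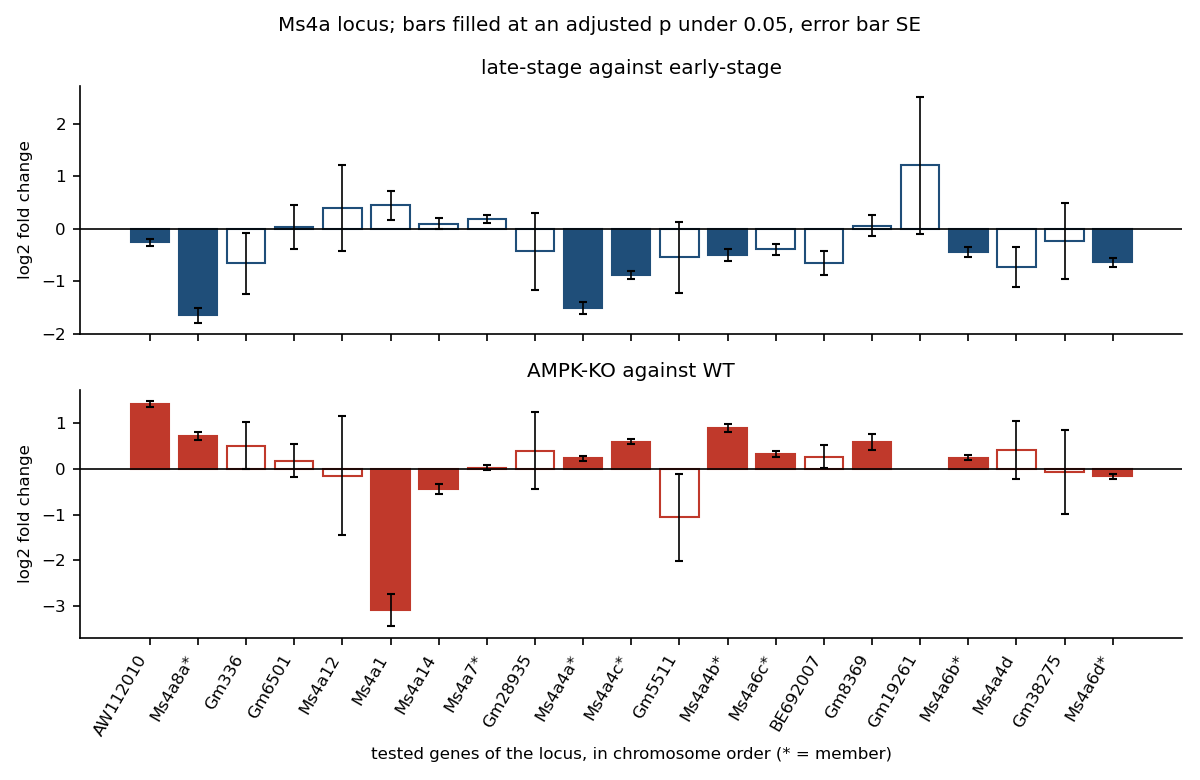
Log2 fold change with its SE (vertical axis) of the tested genes of the cluster in chromosome order (horizontal axis, members starred), for late-stage against early-stage (top) and AMPK-KO against WT (bottom), with filled bars where the adjusted p was under 0.05. Ms4a8a (-1.65) and Ms4a4a (-1.51) are the longest filled bars in the top panel, and Ms4a1 (-3.10) and AW112010 (1.42) in the bottom panel.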

How the data were processed

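The authors deposited raw counts per gene for each library in 2 tables. Per the labels, reads were processed with FastQC, HISAT2 and featureCounts on mm10 (GRCm38), and DESeq2 was named. Strand and multiple-mapping settings are not given in the sources used here. From these counts, each table was fitted on its own with edgeR 4.0.16 (R 4.3.3; filterByExpr, TMM factors, glmQLFit and glmQLFTest, two-sided), and p-values were adjusted over all genes tested. A gene passed at an adjusted p under 0.05. The SE of a log2 fold change was its absolute value divided by the square root of the F statistic of the quasi-likelihood test. That statistic draws in part on the spread of all genes tested. Correlations used log2 CPM with a prior count of 2. The fitting code was tested on simulated data. Genes were matched to GENCODE M21 by identifier. The 8 members, all named in both comparisons, the gene lists and the rules for naming others (up to 4 genes of a list by smallest adjusted p, and the 3 genes most like each member) were chosen with earlier results of these data known. Alternatives were DESeq2 1.42.0, scaling by RLE or by upper quartile, other filters, a replicate block, a fold threshold and leaving out each library. Scaling of all 12 libraries together was added after seeing the data. Precision rests on 3 libraries a group, at 71019494 counts or more each.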

Additional observations from a re-analysis of the deposited data

How the results depend on the processing

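Each member's log2 fold change was recomputed under 12 alternatives in each comparison. In AMPK-KO against WT, 86 values kept direction and side of the threshold, 9 no longer passed and 1 reversed, Ms4a7 without WT replicate 1 (-0.01, where the full data gave 0.03 and did not pass, and the other libraries left out singly gave up to 0.08). In late-stage against early-stage, 85 were kept, 8 no longer passed and 3 newly passed. The members passing numbered 7 and 6. Leaving out single libraries gave 5 to 7 and 4 to 8, and 2414 to 4039 and 653 to 2835 genes in all. Adding a change above 1 on the log2 scale left 0 and 2 members, and 585 and 329 genes. Late-stage against early-stage gave 1619 genes in the main analysis, 2447 with DESeq2, under which Ms4a6c passed (adjusted p = 8.0e-03), and 936 without a filter on low counts. The median over all genes moved by less than 0.1 with every scaling.

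Same-numbered replicates did not deviate together (correlations of -0.0039 to 0.0423 for genotype and 0.0132 to 0.0255 for stage), so the numbers were not taken as pairs. With the replicate block 6 members passed in each comparison, and 3862 and 1417 genes. Ms4a6d in AMPK-KO against WT missed the threshold under the block (adjusted p = 0.0504) and without the filter (0.0565).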
